A study of Caenorhabditis elegans with 14 samples.

Results

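The col genes of the nematode Caenorhabditis elegans encode cuticle collagens. Every gene whose platform annotation symbol starts with col- was taken, and a gene's value was the mean log2 ratio over the probe sets that name that gene alone. This gave 128 genes of the 17118 measured on the arrays, 16 of them read by 2 probe sets and the others by 1. The RefSeq gene table of assembly WBcel235 lists 159 col genes, 156 of them protein coding and 3 pseudogenes. A further 20 of these were reached only by probe sets that name several genes, and 11 by none of the probe sets used.

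The cuticle is the collagenous exoskeleton of the worm. The epidermis secretes a new one before each moult, and in larvae the collagen genes are known to be transcribed in waves during each moulting cycle. A cuticle collagen is a short chain with Gly-X-Y repeats that is hydroxylated in the endoplasmic reticulum, assembled into trimers, trimmed by proteases and cross-linked outside the cell. Not every col gene makes cuticle: col-99 encodes a membrane-anchored collagen known from the nervous system.

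The worms were of the wild-type N2 strain, fed E. coli, cultured at 15 °C and synchronised to the L4 larva, the last larval stage. Worms of the 5 sham and the 5 microwave arrays spent 2.5 h inside a TEM cell, a chamber that carries a uniform field, which was kept at 26 °C. The field was off for the sham worms and continuous for the others, who absorbed 5 to 40 mW per kg. The labels state the frequency differently in 2 places. Each of these arrays pooled the RNA from 3 runs, in which worms of 1 culture were divided between both plates. A further 2 arrays are labelled heat control and 2 heat shock, with no temperature or duration given in the sources used here. All arrays carried RNA of whole worms, so fewer epidermal cells and less collagen RNA per cell cannot be told apart.

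The deposited values were linear ratios, and no absolute signal was available. All 5 sham columns held exactly 1, so a microwave column was taken to be divided by its same-numbered sham array. The heat columns were read as ratios to the mean of the 2 heat controls, which sum to 2 for each probe set within 0.001. Microwave pair 1 had the widest spread, with a standard deviation over genes of 0.357 on the log2 scale against 0.095 to 0.154 in the other 4 pairs. In that pair the mean log2 ratio of 3' minus 5' control probe sets was -0.74, against -0.13 to 0.03 in the others. All 4 measured heat-inducible chaperone genes fell with the heat shock label, hsp-16.2 and hsp-70 among them at -4.86 ± 0.17 and -3.34 ± 0.17 on the log2 scale (SE, n = 2 arrays in each group; adjusted p = 0.00232 by limma for both). Heat is known to induce these genes. Every direction given for the heat comparison is that of the labels and turns if the labels or the ratios ran the other way.

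**Figure D1:**
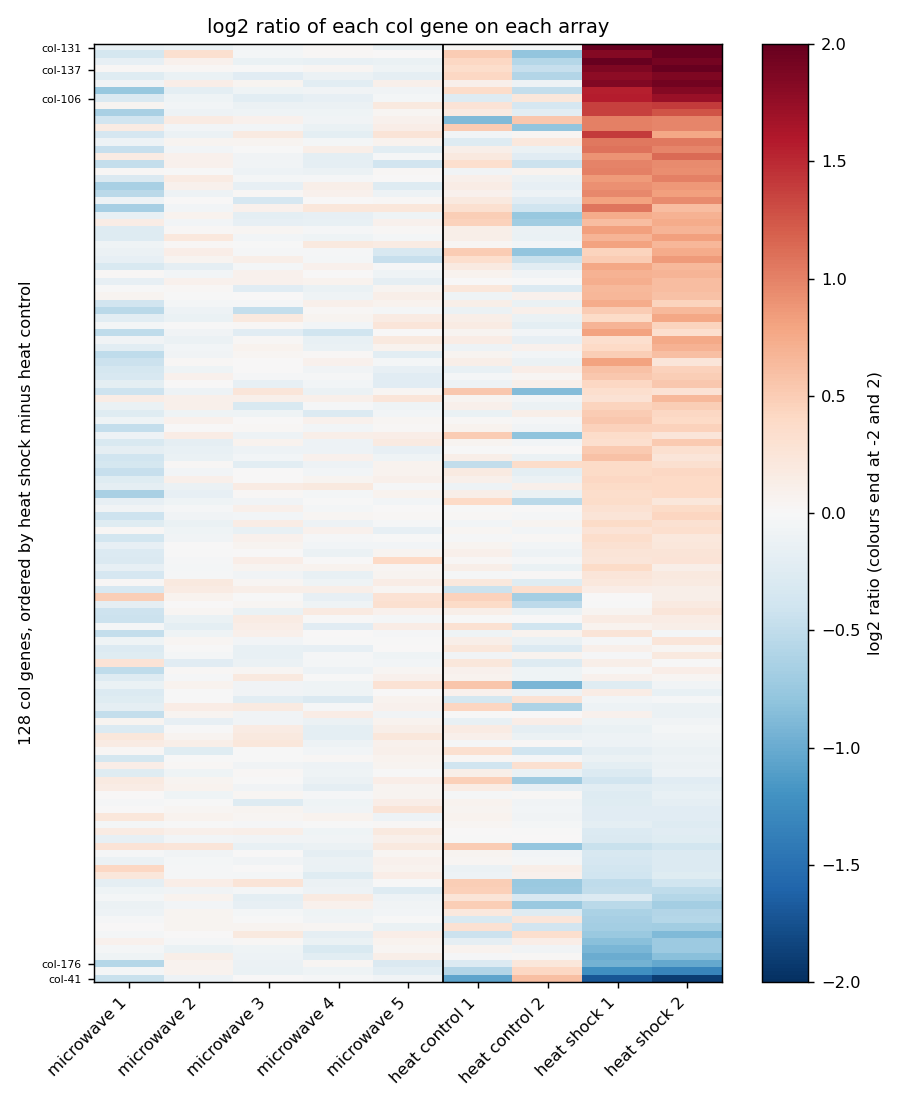
Log2 ratio of each of the 128 col genes (rows, ordered by the heat comparison) on the 5 microwave arrays, the 2 arrays labelled heat control and the 2 labelled heat shock (columns). Colours end at -2 and 2, and 5 genes are labelled. The microwave columns are pale, the 2 heat shock columns resemble each other, and the 2 heat control columns show opposite colours in a subset of genes.

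The heat comparison asked how the collagen genes stood in a treatment known to change expression. Of the 128 genes, 35 rose and 4 fell in the arrays labelled heat shock, and 89 did not pass an adjusted p of 0.05 (limma, Benjamini-Hochberg over all 17118 genes). The background was 15.2% of all genes rising and 14.8% falling. Against it, 27.3% of the col genes rose and 3.12% fell. In all, 30.5% of the col genes passed, near the 30% of all genes that did. The groups did not overlap in 92 of the 128, or 71.9%, again near the 73% of all genes. The median log2 fold change of the col genes was 0.35, and that of all genes was 0.13. With each array centred on its median, 25 rose and 5 fell, against a background of 9.9% and 16.9%, and the col median was 0.24 against 0.03 for all genes. The calls rested on both arrays labelled heat shock, over all genes as well as in the family. Without array 1 of that label the col median was 0.30, and without array 2 it was 0.34. The median of all genes was 0.12 in both cases.

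**Figure D2:**
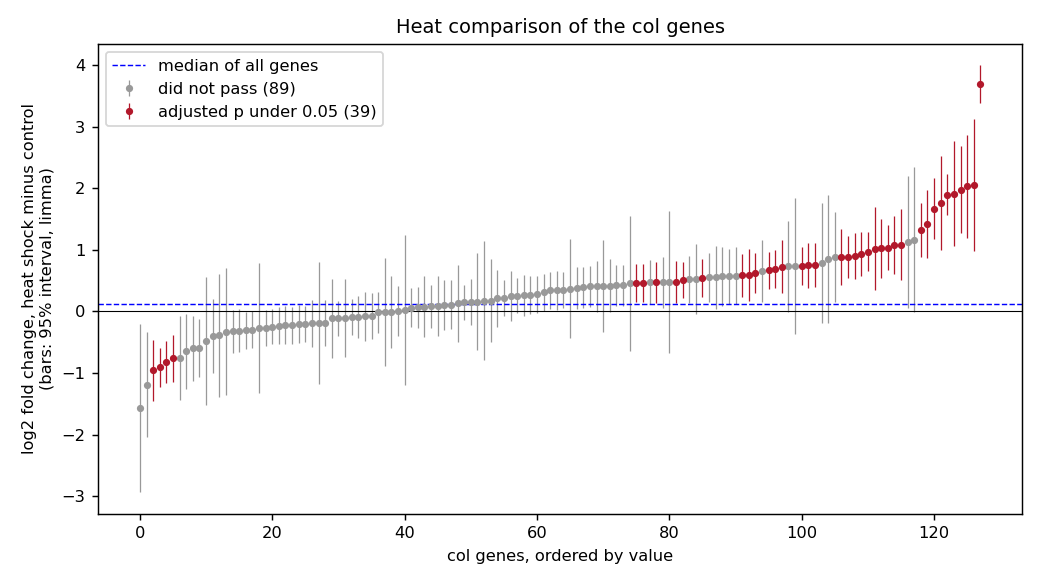
Log2 fold change of each col gene, heat shock minus heat control, ordered by value, with 95% intervals from limma. The 39 genes past the adjusted threshold are in red, 35 of them above 0, and the dashed line is the median of all genes at 0.13.

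The largest rise was that of col-131. Its ratios were 1.02 and 0.98 on the control arrays and 12.4 and 13.5 on the arrays labelled heat shock (log2 fold change 3.70 ± 0.12, SE, n = 2 per group; limma adjusted p = 0.00232). The groups stood far apart and the 2 arrays of each group lay close together. Both of its probe sets rose on the log2 scale. The one that can match several transcripts rose by 4.53, and the one designed for 1 transcript by 2.86. The gap of 1.67 between them was the widest among the 16 col genes with 2 probe sets.

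After it came a set of genes that rose about equally. The ratios of col-120, which is known to be more highly expressed in long-lived insulin receptor mutants, were 1.42 and 0.58 on the control arrays and 3.56 and 3.98 on the arrays labelled heat shock (log2 fold change 2.05 ± 0.42, limma adjusted p = 0.0236). Those of col-91 were 1.33 and 0.67 against 3.99 and 3.77. For col-137 they were 1.27 and 0.73 against 3.65 and 3.96. In these 3 genes both arrays labelled heat shock lay above both controls, as the rule for named genes required. The first control was the higher one. In col-88 the ratios were 1.33 and 0.67 against 3.44 and 3.65, a log2 fold change of 1.91 ± 0.33 (limma adjusted p = 0.0153). In col-118 the controls lay close together, at 1.07 and 0.93, against 3.61 and 3.82, which gave the smaller error of 0.13 on a log2 fold change of 1.90 (limma adjusted p = 0.00247).

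The other 6 of the 12 largest rises were between 1.08 and 1.76 on the log2 scale. They were col-58 at 1.76 ± 0.30, col-106 at 1.67 ± 0.19, col-89 at 1.42 ± 0.22, col-68 at 1.32 ± 0.17, col-61 at 1.09 ± 0.23 and col-140 at 1.08 ± 0.19 (limma adjusted p from 0.00545 to 0.0245). In col-61 the arrays labelled heat shock differed from each other, at 2.64 and 1.71, and both lay above the controls at 0.97 and 1.03. A further 23 col genes rose by 0.46 to 1.04 on the log2 scale. Among these was col-19, a gene known for its expression in the adult epidermis, at 0.63 ± 0.13 (limma adjusted p = 0.0224), with ratios of 0.94 and 1.06 on the controls and 1.59 and 1.50 on the arrays labelled heat shock. The non-cuticle gene col-99 was just past the threshold, at 0.48 ± 0.13 (limma adjusted p = 0.0498). Its 2 probe sets, fitted one by one, did not pass (limma adjusted p = 0.0864 and 0.0519).

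Only 4 col genes fell past the threshold, each by less than 2-fold. Larger falls in col-41 and col-90, at -1.57 and -1.19 on the log2 scale, did not pass, and their controls lay at least 2-fold apart. In the fit over probe sets col-90 did pass (limma adjusted p = 0.0489). Ratios of col-176 were 0.83 and 1.17 on the controls and 0.52 and 0.49 on the arrays labelled heat shock (log2 fold change -0.96 ± 0.20, limma adjusted p = 0.0232). The gene col-81 stood at 0.99 and 1.01 against 0.51 and 0.56, and col-139 at 1.05 and 0.95 against 0.53 and 0.61. In col-119 the ratios were 0.89 and 1.10 against 0.56 and 0.60. Both of its probe sets passed in the same direction, and both can match several transcripts. In these 4 genes that passed, both arrays labelled heat shock lay below both controls, as the rule for named genes required. How the family stood depended on the controls. Without the first control array its median was 0.41 on the log2 scale, against 0.11 over all genes. Without the second it was 0.25, against 0.14 over all genes.

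**Figure D3:**
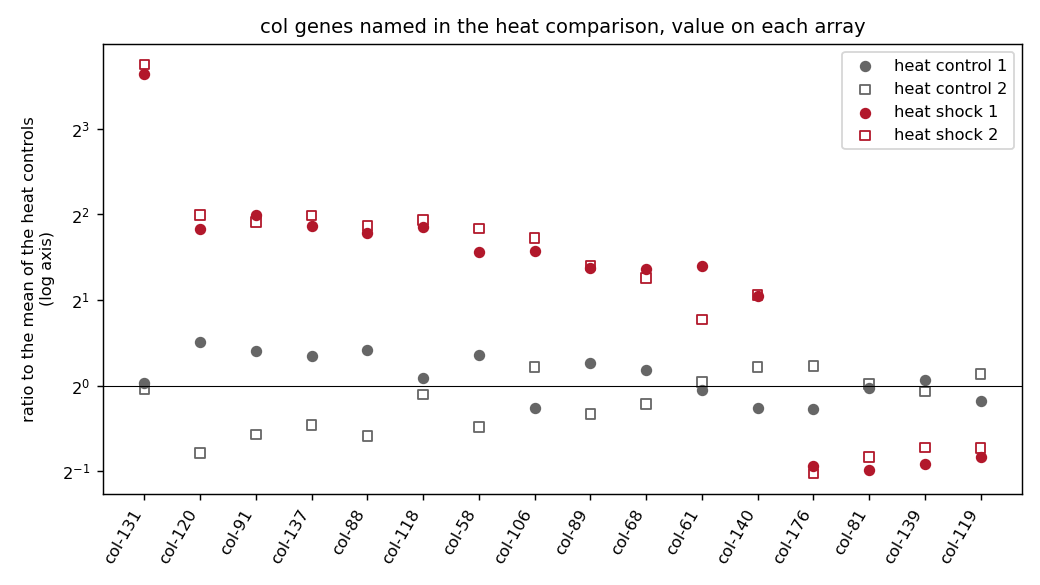
Ratio to the mean of the heat controls (log axis) for the 12 col genes with the largest rises and the 4 that fell, on each of the 4 heat arrays. Red symbols of the arrays labelled heat shock lie above both grey control symbols in the 12 genes on the left and below both in the 4 on the right. The rule for named genes required groups that do not overlap.

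Of 20 col genes chosen because a role or a stage of expression is known for them, 15 were measured, 4 rose, 1 fell and 10 did not pass, where 15.2% of all genes rose and 14.8% fell. The 4 that rose were col-19, col-120, the non-cuticle gene col-99 and col-36, the last at 0.59 ± 0.14 (limma adjusted p = 0.0329). The dauer collagen gene col-2 stood at 0.57 ± 0.18 (limma adjusted p = 0.0648), and col-17 at -0.59 ± 0.18 (limma adjusted p = 0.0657). For col-12, one of a pair of nearly identical genes, the log2 fold change was -0.11 ± 0.11. The genes without a call ranged from -0.59 to 0.57.

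The probe sets differed in how specific they are, and the outcome went with it. Probe sets with the plain suffix _at are designed for 1 transcript, and those with _s_at or _x_at can match several. Among 76 col genes read only by plain probe sets, 27 rose and 1 fell, and the median was 0.46 on the log2 scale. The background for genes read only by such probe sets was 16.5% rising and 10.4% falling, with a median of 0.18. Among 48 col genes read only by probe sets that can match several transcripts, 6 rose and 3 fell, with a median of -0.08. There the background was 13.3% rising and 24.7% falling, with a median of -0.04. These 6 risers included col-106, col-120 and col-140, and the 3 that fell were col-81, col-119 and col-139. Of the 17 probe sets that name several col genes, 1 rose, 1 fell and 12 lay below 0. Over all 22548 probe sets 3317 rose, 3457 fell and 13656 lay above 0. The riser names col-62 and col-7, which neighbour each other, with ratios of 1.00 and 1.00 on the controls and 1.93 and 1.94 on the arrays labelled heat shock (log2 fold change 0.95 ± 0.12, limma adjusted p = 0.00552 over probe sets). The one that fell names col-10 and col-144 and stood at -0.46 ± 0.12 (limma adjusted p = 0.0408), while the other 2 probe sets for that pair, at -0.36 and -0.29, did not pass. Cross-hybridisation between similar collagen genes cannot be separated from a gene's own level in these probe sets.

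Col genes lay on all 6 chromosomes, with 37 on chromosome IV, 23 each on II and V, 18 each on I and X, and 9 on III. Risers were found on each of them: 7 each on II, IV and X, 6 on I, 5 on V and 3 on III. By the RefSeq gene order, 45 col genes stood in 19 runs with no other protein-coding gene between them, the longest of 5 genes. Among 12 pairs of neighbours in which both genes were measured, 9 had the same sign in the heat comparison, and the median gap within a pair was 0.26 on the log2 scale. Of all 128 col genes 89 lay above 0, so members often share a sign wherever they lie. Whether neighbours share it more often was not tested. The neighbours col-183 and col-184 on chromosome X both rose, at 0.89 ± 0.13 and 0.97 ± 0.12 (limma adjusted p = 0.0101 and 0.00657). In the run of col-17, col-20 and col-73 on chromosome II the values were -0.59, -0.07 and -0.65, and in the run of col-79, col-39 and col-80 they were -0.38, 0.26 and -0.60. None of these 6 genes passed.

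The 2 heat control arrays themselves differed in a subset of the family. In 19 of the 128 genes the ratio on 1 control was at least 2-fold that on the other, which is 14.8% of the family against 2.77% of all genes. The first control was higher in 16 of them, by 2.00-fold to 2.76-fold (background 1.81%), and the second in 3 (background 0.964%). A gap of at least 1.5-fold was seen in 37, or 28.9%, against 7.93% of all genes. Among the 128 genes 0 differed by 2-fold between the 2 arrays labelled heat shock, where 0.193% of all genes did, and the largest difference in the 19 was 0.29 on the log2 scale. With 1 array on each side of this difference there is no test of it.

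These genes were picked for their gap. The widest gap with the first control higher was that of col-138, at 1.47 and 0.53 on the controls and 0.84 and 0.96 on the arrays labelled heat shock. The gene col-71 stood at 1.45 and 0.55 against 1.27 and 1.22, and col-49 at 1.42 and 0.59 against 0.74 and 0.77. In col-138, col-71 and col-49 the arrays labelled heat shock lay between the controls. The opposite order was seen in col-41, at 0.48 and 1.52 against 0.31 and 0.27, in col-143, at 0.54 and 1.46 against 2.01 and 1.97, and in col-90, at 0.66 and 1.34 against 0.43 and 0.40. Only col-88 and col-120 of the 19 passed the heat test, and 17 did not. In 10 of the 19 the arrays labelled heat shock were on average lower than the first control and higher than the second, so that the sign of the comparison hung on the control chosen. Over the whole family the mean of these arrays lay on opposite sides of the 2 controls in 28 genes. Among the 91 col genes whose controls differed by less than 1.5-fold, 32 passed, or 35.2%, against 30.1% of all such genes. Of these, 28 rose, or 30.8%, against 16% of all such genes.

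Other gene lists moved with this difference between the controls, and the examples named here were picked for it. Over all genes 1.81% were at least 2-fold higher on the first control and 0.964% on the second. Among 20 body shape and blister collagens, a list that also holds mec-5 and ram-2, 7 were at least 2-fold higher on the first control and 0 on the second. The blister collagen gene bli-1 stood at 1.50 and 0.50, and sqt-1, which shapes the body, at 1.45 and 0.55. Among 17 genes of cuticulins and the apical matrix, 4 were at least 2-fold higher on the first control, such as the moulting gene mlt-9 at 1.45 and 0.55. All 5 measured yolk protein genes went the other way by more than 2-fold, with vit-5 at 0.25 and 1.75 and vit-2 at 0.34 and 1.66. Of 12 germ line markers 3 were at least 2-fold higher on the second control, among them the yolk receptor gene rme-2 at 0.58 and 1.42 and the oocyte gene oma-2 at 0.49 and 1.50. The median difference, first minus second control, was 0.17 on the log2 scale for the col family, 0.76 for the shape collagens, -0.86 for germ line, -2.38 for yolk, -0.30 for sperm, -0.17 for intestine, -0.04 for body wall muscle and 0.02 for neurons. The part of these markers in the heat result was not tested.

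**Figure D4:**
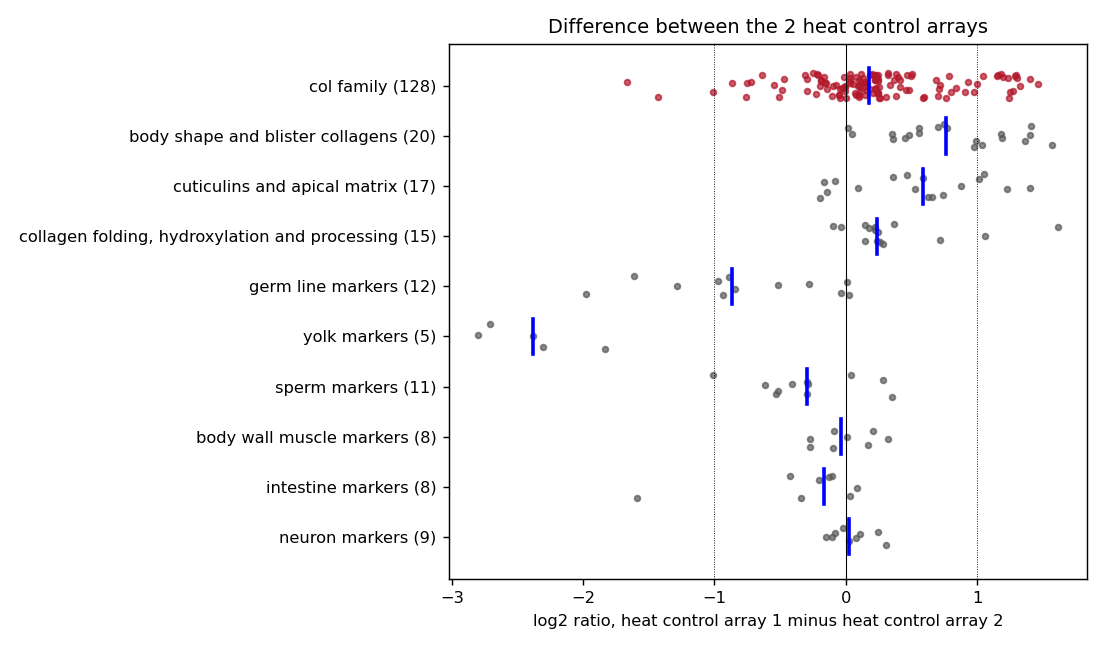
Difference between the 2 heat control arrays (log2 ratio, array 1 minus array 2) for each gene of the col family and of 9 other lists, with the number of measured genes in brackets. Blue bars are medians, and dotted lines mark 2-fold. The col genes spread to both sides with more beyond the right line, while the yolk genes all lie beyond the left line.

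Genes that modify and secrete collagen were read against the same background, 15.2% of all genes rising and 14.8% falling. Among 15 measured genes for folding, hydroxylation and processing, 0 rose and 8 fell, and the median was -0.58 on the log2 scale. The prolyl hydroxylase subunit gene phy-2 stood at 1.05 and 0.95 on the controls and 0.12 and 0.18 on the arrays labelled heat shock (-2.74 ± 0.21, limma adjusted p = 0.00267), and dpy-11, for a thioredoxin-like protein of the endoplasmic reticulum, at 1.35 and 0.65 against 0.33 and 0.33 (-1.50 ± 0.35, limma adjusted p = 0.0326). The gene tmem-131, needed for collagen secretion, fell by 1.26 ± 0.13 on the log2 scale, and the disulphide isomerase gene pdi-3 by 1.11 ± 0.13. Of 9 collagen secretion genes 5 fell and 0 rose, with sec-12 at -1.60 ± 0.15. Of 7 cross-linking genes 2 fell and 0 rose, among them tsp-15, a partner of the dual oxidase, at -1.01 ± 0.28 (limma adjusted p = 0.0486). In the 20 shape collagens 1 rose and 4 fell, dpy-17 at 0.85 ± 0.15 and bli-1 at -2.15 ± 0.51, with a median of -0.58. Among cuticulins and apical matrix genes 1 rose and 6 fell, with lpr-3, noah-2 and noah-1, all for apical matrix proteins, at -2.78 ± 0.26, -2.65 ± 0.35 and -2.61 ± 0.30. Of 25 epidermal and moulting regulators 3 rose and 6 fell, the epidermal GATA factor gene elt-3 at -1.37 ± 0.23 and lin-29, which drives the larval to adult switch, at -1.08 ± 0.16. The 3 that rose were the homeobox gene ceh-16 at 0.60 ± 0.13, the period-like gene lin-42 at 0.57 ± 0.13 and the GATA factor gene egl-18 at 0.49 ± 0.13, and the median of this list was 0.08. All 3 basement membrane and related collagens, emb-9, let-2 and cle-1, did not pass.

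Markers of some other cell types moved in the heat comparison, in which 15.2% of all genes rose and 14.8% fell. Of 11 sperm markers 9 rose and 1 fell, of 8 body wall muscle markers 1 rose and 6 fell, and of 8 intestine markers 1 rose and 6 fell. Fewer or about as many passed in the other lists as among all genes, of which 30% did. Of 9 neuron markers 2 fell, of 12 germ line markers 1 rose and 1 fell, and all 5 yolk genes did not pass. Their medians were 0.93 for sperm, -0.88 for muscle, -0.72 for intestine, -0.14 for neurons, 0.15 for germ line and 0.34 for yolk. Their part in the change of the col genes was not tested.

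The microwave comparison asked whether the field altered collagen transcripts at a matched temperature. None of the 128 genes passed, and 0 of the 17118 genes did (limma, Benjamini-Hochberg), the lowest adjusted p of a col gene being 0.872. At an unadjusted p under 0.05, 8 col genes were lower and 1 was higher, against a background of 1.6% and 1.74% of all genes. In 128 of 128 col genes the 95% interval held no change beyond 1.5-fold in either direction, which was so for 98.4% of all genes. The median log2 ratio of the family was -0.04, with 93 genes below 0, or 72.7% against 51.4% of all genes.

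The pairs differed in this shift. In pair 1 the family median was -0.17 with 99 genes below 0, in pair 2 -0.006 with 70, in pair 3 -0.01 with 70, in pair 4 -0.07 with 91, and in pair 5 0.03 with 52. Over all genes the medians of the 5 pairs lay between -0.02 and 0.01. The shares of all genes below 0 were 51.9%, 46.6%, 56.9%, 46.6% and 51.7% in pairs 1 to 5. Pair 1 was thus the lowest and pair 5 the only one above 0 for the family. Without pair 1 the median of the family was -0.02 and 80 genes lay below 0. Pair 1 was also the pair with the low 3' minus 5' value given above, whose part in this shift was not tested.

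**Figure D5:**
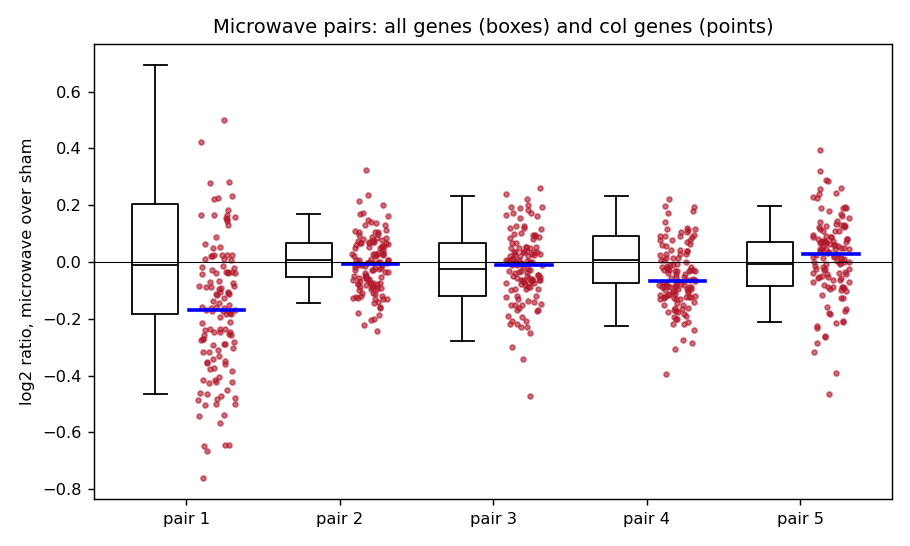
Log2 ratio of microwave over sham in each of the 5 pairs. Boxes show all genes (quartiles, with whiskers at the 5th and 95th percentiles), red points the 128 col genes and blue bars their medians. The blue bar of pair 1, at -0.17, is the lowest, and the other 4 run from -0.07 to 0.03.

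The col gene with the smallest unadjusted p in the microwave comparison was col-88. Its log2 ratios were -0.24, -0.13, -0.22, -0.11 and -0.18 in pairs 1 to 5, with a mean of -0.18 ± 0.05 (SE, n = 5; limma adjusted p = 0.872), below 0 in 5 of 5 pairs. For col-55 they were -0.18, -0.15, -0.09, -0.09 and -0.17, and for col-106 -0.29, -0.09, -0.21, -0.17 and -0.04. These genes lay below 0 in each pair, and they are named because their p-values were among the smallest of the family. In all, 8 col genes were below 0 in 5 of 5 pairs, which is 6.25% against 3.33% of all genes. Only col-40, a collagen gene known from dauer larvae, was above 0 in 5 of 5 pairs, at 0.14 ± 0.05, where 2.6% of all genes were.

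The other 6 of the 10 smallest p-values belonged to col-50, col-114, col-111, col-99, col-36 and col-58, with mean log2 ratios from -0.24 to -0.13. Without pair 1 the 10 means ran from -0.17 to 0.14. The lowest single value of the family was that of col-58 in pair 1, at -0.76, with -0.20, -0.08, -0.08 and -0.06 in the other pairs. The highest was that of col-14 in pair 1, at 0.50, with 0.07, -0.001, -0.16 and 0.29 in the other pairs. The 12 genes with the largest rises in the heat comparison had microwave means from -0.24 ± 0.11 for col-58 to 0.005 ± 0.05 for col-140. The genes col-88, col-68 and col-106 also lay toward the low end of the family, at -0.18 ± 0.05, -0.18 ± 0.10 and -0.16 ± 0.05. Between were col-91 at -0.10, col-131 at -0.08 ± 0.05 and col-61 at -0.04. Near 0 were col-89 at -0.009, col-120 at -0.007 ± 0.09, col-137 at 0.0001 and col-118 at 0.002. Microwave means and heat effects had a correlation of -0.21 over the family and -0.30 over all genes.

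The difference between the heat effect and the microwave effect was fitted in 1 model over the 9 arrays with measured spread. That model gives each gene 1 estimate of the spread for the microwave and heat arrays together. Its counts and p-values are therefore not stronger evidence than those of the heat comparison alone. The difference passed for 61 col genes, 51 with the heat value higher and 10 with it lower (limma adjusted p under 0.05), against a background of 21.5% and 16.7% of all genes. With each array centred on its median these counts were 39 and 13, against 14.1% and 18.9%. With the heat direction turned, as the chaperone genes leave the labels in doubt, it passed for 45 col genes, 34 with the turned heat value lower and 11 with it higher, against 17.3% and 14% of all genes. In the genes col-184 and col-19 the difference was 1.01 ± 0.12 and 0.61 ± 0.13 (limma adjusted p = 0.000274 and 0.00476).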

How the data were processed

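Whole-worm RNA was hybridised to 14 one-colour Affymetrix arrays. Images were read in GCOS and scaled with MAS 5, per the labels' protocols, and RMA is named without a role in the submitters' processing notes. The authors deposited linear ratios per probe set, and the baselines given in the report were read from the values. Control probe sets (77) were left out. Of 22548 probe sets, 20766 name 1 gene in the platform annotation, 887 name several and 895 are unnamed here. Ratios were taken to log2 and averaged per gene.

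Tests were limma 3.58.1 (lmFit, eBayes, R 4.3.3), two-sided, with Benjamini-Hochberg adjustment over all genes at 0.05, and were tested on simulated data. Microwave ratios were tested against 0 over 5 pairs and heat as 2 against 2 arrays. Nothing says that the heat arrays came from separate cultures, so their p-values measure the spread between these arrays, which may be technical. The small number of arrays limits the precision. The labels do not say that the numbers pair the heat arrays, so the main fit did not pair them. Same-numbered heat arrays deviated from their group means with a correlation of -0.06 over 17118 genes. With 2 arrays per group this cannot exclude a pairing.

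The members and gene lists were chosen with earlier results of these data known. The rule for named genes took, per comparison, the 12 largest rises and falls among members past the threshold without overlap. With fewer than 6 such members it took the 10 smallest unadjusted p-values. It added members with a background role, extreme single-pair values, neighbour runs of 3 or more, and up to 4 examples per list. The neighbours col-183 and col-184, the risers named from lists, and genes named for the gap between the controls or for their probe sets were chosen after their values were seen. Alternatives covered centring, probe set suffix, probe set summary, robust and quantile settings, the replicate block and leaving out arrays. Removal of a gene length trend, a limit on control differences and turning the heat direction were chosen after seeing the data. Protein and promoter sequences were not used here, so the planned comparison of their features and of near-identical protein pairs was not made.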

Additional observations from a re-analysis of the deposited data

Results flagged for a closer look

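The microwave pair ratios of the named col genes and of the family median made 34 series. In 5 of them 1 pair lay far from the other 4, by a gap above 0.71 of the range. For genes not picked by these values chance gives about 1 in 20 if the 5 pairs have equal spread. Over all genes pair 1 had a wider spread than the others. Some genes here were named for an extreme single pair, col-58 and col-14, or for a small microwave p. That rate therefore applies neither to the 34 nor to the whole family. The pair that stood apart was pair 1 for col-12 at -0.353, col-58 at -0.761 and col-68 at -0.646. It was pair 5 for col-2 at 0.241 and pair 2 for col-91 at 0.0786. Over the 128 members 15 had such a pair, which was pair 1 in 11. The part of the wide spread and low 3' minus 5' value of pair 1 in this was not tested. No such count was made over all genes, so these numbers cannot be called particular to the family.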

How the results depend on the processing

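In the microwave comparison 0 members passed under every alternative run (limma; 5 to 9 at an unadjusted p under 0.05), and the family median stayed below 0, from -0.07 to -0.02 when 1 pair was left out. Members lower at an unadjusted p numbered 8, and 4 with plain probe sets alone, where 80 members are measured; leaving out 1 pair gave 3 to 7. In the heat comparison, leaving out 1 array gave 0 to 43 members higher, 0 to 16 lower and 0 to 5069 of all genes past the threshold, against 35, 4 and 5129. Without array 1 labelled heat shock all 3 counts were 0, with a lowest adjusted p of 0.058 (38 members at an unadjusted p under 0.05), and without array 2 the count of lower members was 0 as well. The lone array left in a group was assumed to vary like the other group. Plain probe sets alone left 1 member lower. The family median of 0.35 became 0.24 with centred arrays, 0.44 with plain probe sets alone, and 0.25 to 0.41 when 1 array was left out. With the replicate block 24 members rose, 4 fell and 3299 genes passed; 27 of its 28 calls were shared with the 39 reported. Without the first control 32 of 51 calls were shared, and without the second 33 of 50. Of the 16 named heat genes 0 passed without array 1 labelled heat shock, 3 without array 2, and 15 without control 1; the cause was not tested. No named gene reversed. With the heat direction turned, the difference from microwave was higher in 11 members and lower in 34, against 51 and 10. Shared probe sets and the lack of absolute signal limit what can be said of single genes.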
